A study of Homo sapiens with 8 samples.

Results

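Guides aimed at splice junctions of the deposited category partial_unique were examined in a dropout screen. The members were all rows of the deposited table with that category: 4665 of 46829 guides, on 646 junctions of 158 genes. The screen used A375, an established human melanoma line, as 1 clone carrying RfxCas13d under a doxycycline-controlled TetO promoter and a lentiviral pool of guides, and all groups carried both. Per the labels, 8 libraries of the guide cassette were amplified from genomic DNA: 2 replicates of untreated cells at Day 0, and 2 replicates each at Day 7, Day 14 and Day 21 with 1 ug/ml doxycycline. The deposited value of a guide was its log2 fold change against Day 0, so -1 is a drop by 50% on the deposited scale. How that scale was set was not given. The labels do not say whether the replicates were separate infections, so the p-values rest only on the spread between these samples, which may be technical. The tests pooled that spread, in part or in full, over all guides or junctions tested.

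Cas13d is an RNA-guided nuclease that cuts RNA and leaves the gene intact. A guide laid across a splice junction is designed to match transcripts in which those exons are joined. A gene that makes several isoforms can therefore be probed junction by junction, and in a pooled screen a guide becomes rarer when its carrier cells grow more slowly than the rest. The definition of the partial_unique category was not given in the sources used here. The other categories of the table were common, single_unique and fully_unique, next to guides for non-essential control genes and non-targeting guides.

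Of the 646 partial_unique junctions, 468 carried the full set of 8 guides. Guides of the same junction overlap and are not replicates, so the junction mean was the unit of most tests, and 619 junctions of 155 genes had the minimum of 3 guides. Of the 158 genes, 49 had 1 such junction, 73 had 2 to 5 and 36 had 6 or more, up to 24 in CABIN1. Of these genes, 84 also had common junctions, 46 also had fully_unique junctions and 50 had no other category. All 158 genes were typed "Cas13 Non-Essential" in the deposited table. How that type was assigned was not stated, and it may rest on these same values. The table also gives a GeCKO score per gene, and GeCKO is the name of a Cas9 knockout library. Over these genes it lay between -2.028 and -0.851 with a median of -1.08. Junction coordinates are given as deposited, and 629 of 630 junctions of genes matched to RefSeq lay inside that gene on assembly GRCh38.p14.

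As a class, partial_unique guides declined after Day 7. The median of the 4665 guides minus the median of the 963 non-targeting guides was 0.026 in replicate 1 and -0.11 in replicate 2 at Day 7. It was -0.20 and -0.16 at Day 14, and -0.23 in both replicates at Day 21. The replicates thus lay on opposite sides of 0 at Day 7 and on the same side at Day 14 and Day 21. A minority of guides reached -1. The share at -1 or lower was 6.68% ± 4.35 (SD, n = 2) at Day 7, 22.6% ± 0.849 at Day 14 and 29.7% ± 1.5 at Day 21. The background in non-targeting guides at Day 21 was 16.8% ± 0.587, and in guides of control genes 21.6% ± 1.92. At Day 21, fully_unique guides had a median 0.17 below the non-targeting guides and 27.1% ± 1.71 of them were at -1 or lower. For common guides of genes typed non-essential, the share was 19.5% ± 1.54. With 2 libraries a day, these differences between classes were not tested.

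Single guides were tested with limma at each day alone, over the whole table, and called where the p-value after Benjamini-Hochberg adjustment was below 0.05. At Day 7, 67 partial_unique guides were lower, 1.44% against 2.1% of all guides. At Day 14 there were 246, 5.27% against 7.96% of all guides, and at Day 21 there were 405, 8.68% against 11.1%. At Day 21, 17 guides were higher, 0.364% against 0.218% of all guides, while 2 were higher at Day 14 (background 0.0128%) and 0 at Day 7 (background 0.00641%; 357 of the members had an unadjusted p under 0.05 in either direction). Among non-targeting guides 1.04% and among guides of control genes 2.71% were called lower at Day 21.

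At Day 14 and Day 21, though not at Day 7, junction means gave a larger called share than single guides. At Day 7, 2 of 619 junctions were lower (0.323%; background 0.625% of the 6401 junctions tested) and 0 were higher, with 53 at an unadjusted p under 0.05. At Day 14, 107 were lower (17.3%; background 21.9%) and 2 higher (background 0.281%). At Day 21, 131 were lower (21.2%; background 25.3%) and 4 higher (0.646%; background 0.937%). All of these member shares of lower junctions were below those of the whole table, which is made up largely of junctions typed essential. At Day 21 limma estimated the same variance for every junction, with a standard error of 0.36 for each. The call then amounted to a cut on the mean: the least lowered junction called had a mean of -0.90 and the lowest uncalled one -0.88, whatever its number of guides. The very small adjusted p-values of junctions against Day 0 follow from that pooled variance. With each library centred on the median of all guides, which was -0.33 and -0.28 at Day 21, the counts were 98 lower and 19 higher.

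The 131 lower junctions fell in 54 of the 155 genes. Of them, 101 had already been called lower at Day 14, and 6 others were called lower at Day 14 and not at Day 21. Their medians were -0.16 and -0.47 in the replicates at Day 7, -1.19 and -1.30 at Day 14, and -1.78 and -1.61 at Day 21. At Day 7, 91 of the 131 were below 0 in both replicates. The 484 junctions not called had Day 21 medians of -0.15 and -0.081. In the other classes, junctions were called lower at Day 21 in 59 of 302 fully_unique (19.5%), 14 of 731 common typed non-essential (1.92%), 15 of 473 single_unique typed non-essential (3.17%) and 56 of 615 control junctions (9.11%), the last with few guides each. In the 83 genes tested for both kinds, 47 of 296 partial_unique junctions (15.9%) and 6 of 339 common junctions (1.77%) were lower. In the 45 genes tested for both partial_unique and fully_unique junctions, the shares were 49 of 183 (26.8%) and 43 of 120 (35.8%), and 52 of those 120 belong to UBR4. These shares were not tested against each other, and the type may itself rest on the guides of the common junctions.

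The genes were grouped by function, and only their partial_unique junctions were counted. For all partial_unique junctions the Day 21 median was -0.25, with 131 of 619 lower, and over all junctions of the table it was -0.30. Of 20 junctions of 6 spliceosome and splicing genes, 11 were lower and the median was -1.29. Of 5 junctions of large ribosomal subunit proteins 3 were lower (median -1.51), and of 2 of the small subunit 1 was lower (median -2.67). Of 4 junctions of nuclear transport genes 2 were lower, both in NUTF2. Cytosolic translation factors and aminoacyl-tRNA synthetases had 12 of 43 lower (median -0.24), proteasome subunits 3 of 7 (median -0.47) and DNA replication genes 2 of 9 (median -0.18). Mitochondrial translation had 2 of 21 lower (median -0.092) and chaperonin genes 1 of 5 (median -0.16). No junction was called lower among 16 of vesicle and secretory genes, 11 of kinetochore and mitotic genes, 6 of Mediator and general transcription factors, 6 of the ribosome biogenesis helicase DDX55, 3 of RNA polymerase subunits and 1 of the respiratory chain. No junction of any of these 15 groups was called higher. The groups hold only the genes of fixed lists. The mitotic kinase WEE1, the ribosome assembly factor RSL24D1 and DCAF13, all described below, were in none of them. Of their junctions 2, 1 and 2 were called lower. Other tested genes were outside the groups too. Among them were SNU13 and UBL5 with no junction called, EFL1 with 3 of 14 lower and TMA16 with 1 of 3 lower. The group counts therefore depend on which genes the lists hold.

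The lowest partial_unique junction of the table lay in RPLP0, the acidic stalk protein of the large ribosomal subunit. Its junction at chr12:120199205-120199309 had mean log2 fold changes of -1.98 and -3.40 at Day 7, -3.99 and -5.30 at Day 14, and -5.00 and -6.40 at Day 21. All 8 guides were at -1 or lower in both replicates, and the Day 21 mean was -5.70 ± 0.99 (SD, n = 2; limma adjusted p = 6.42e-53). The next junction of the same gene, chr12:120199000-120199117, stayed near the start: 0.21 and 0.0086 at Day 7, 0.018 and -0.019 at Day 14, and 0.60 and 0.18 at Day 21. Its 8 guides included none at -1 or lower in both replicates. These 2 adjacent junctions of 1 gene differed by 6.09 at Day 21 (limma within-gene test, adjusted p = 3.22e-13), and the groups of values did not overlap at any day. For all named junctions the Day 21 standard error of that test lay between 0.358 and 0.380, whatever the replicate spread. It was 0.359 for the MARS junction starting at 57504299 (SD 0.12) and 0.379 for that of RPS29 (SD 0.97). The adjusted p-values of within-gene differences thus follow mainly from a variance pooled over junctions.

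The number of reads behind each value was not given, but the values hold a trace of it. After a constant per library was taken off, every fold change of all 6 libraries was the log2 of 1 whole number divided by another, the divisor being 2000 or less (within 1e-09). The implied Day 0 number of a guide is the smallest whole number that accounts for its values at all 3 days. The true number may be a multiple of it, and any pseudocount would be part of it, so implied numbers are not read counts. Over the partial_unique guides the median implied Day 0 number was 91 in replicate 1 and 122 in replicate 2. At Day 21, 126 guides (2.70%) in replicate 1 and 95 (2.04%) in replicate 2 were at an implied 1, against 3.03% and 3.12% of all guides. Such guides may lie at or near the lowest measurable value. In RPLP0, guide 8 of the low junction went from an implied 141 to 1 and, in the second replicate, from 161 to 1, with log2 fold changes of -7.08 and -7.46. The least lowered guide there, guide 5, went from 135 to 16 and from 159 to 31. On the neighbouring junction, guide 5 went from 90 to 156 and from 70 to 268.

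RPL27A, another large subunit protein, had a single junction with enough guides, chr11:8684892-8685677. It was at -1.37 and -3.01 at Day 7, -4.48 and -5.65 at Day 14, and -4.31 and -6.44 at Day 21. All 8 guides were called lower, and the replicates differed by more than for most named junctions, with a mean of -5.37 ± 1.51. RPL18 was lower on its only tested partial_unique junction (-1.51), which was also called below its gene in the within-gene test. The common junction of RPL18 was at -5.3e-05. RPL35 was not called (-0.45). RPS29, a small subunit protein, had a partial_unique junction at chr14:49586049-49586284 and a fully_unique one at chr14:49577853-49585949. The partial_unique junction was at -0.95 and -2.14 at Day 7, -3.71 and -4.81 at Day 14, and -4.05 and -5.65 at Day 21. The fully_unique junction was at 0.25 and 0.17, then 0.15 and -0.013, then 0.10 and -0.12. The Day 21 difference was -4.84 ± 0.97 (SD, n = 2; adjusted p = 9.69e-11), so that within RPS29 the loss of guides was measured on the partial_unique junction and not on the other. RPS15A was not called (-0.49).

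Further genes of the ribosome showed the same kind of split. RACK1, a scaffold protein bound to the small subunit, had 3 tested junctions. The one at chr5:181239177-181239486 was at -0.95 and -2.33 at Day 7, -3.09 and -2.88 at Day 14, and -3.32 and -3.55 at Day 21. The partial_unique junction at chr5:181237719-181238098 had a Day 21 mean of -0.19 ± 0.16, and the fully_unique one at chr5:181240345-181241491 of -0.30 ± 0.34. The first was at -3.19 relative to the mean of the others (adjusted p = 6.3e-08). RSL24D1, an assembly factor of the large subunit, had 2 junctions. The one at chr15:55191047-55192719 fell to -4.34 and -2.76 at Day 21, whereas the one at chr15:55182225-55183314 was at -0.54 and 0.072. The difference of 3.31 had an adjusted p of 5.22e-08, but with the guide median in place of the mean it was 3.05 with an adjusted p of 0.0615, so the call was lost.

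HNRNPH1 encodes an RNA-binding regulator of splicing, and all 5 of its partial_unique junctions were called lower, 1 of 4 genes with 2 or more such junctions in which that was so. The others were BRAF, BUD31 and NUTF2. In HNRNPH1 the lowest junction, chr5:179616958-179617050, had 5 guides and stood at -1.23 and -3.10 at Day 7, -4.74 and -5.62 at Day 14, and -5.15 and -5.99 at Day 21. Its highest guide was at -3.43, and 3 of the 5 in replicate 1 and 4 in replicate 2 were at an implied number of 1. The other 4 had Day 21 means of -3.41, -2.73, -2.25 and -1.47. The 2 fully_unique junctions of the gene, at chr5:179616218-179617020 and chr5:179623164-179623635, had means of 0.39 and -0.44 and were not called.

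These HNRNPH1 junctions allow a comparison at a shared splice site. The partial_unique junction chr5:179616218-179616868 and the fully_unique junction chr5:179616218-179617020 begin at the same base and end at different ones. At Day 21 the first was at -2.46 and -2.99 and the second at 0.071 and 0.72, a difference of -3.12 ± 0.83 (SD, n = 2; limma adjusted p = 1.5e-06). Another HNRNPH1 pair shares a start, the partial_unique chr5:179623164-179623594 (mean -1.47) and the fully_unique chr5:179623164-179623635 (mean -0.44). It differed by -1.03 and was not called (limma adjusted p = 0.204). Over the table, 62 pairs of junctions of the same gene shared 1 splice site, and 39 of these, in 27 genes, held a partial_unique junction. Of the 39, 3 differed, next to 4 of all 62 (6.45%, being 3.23% in each direction of subtraction), and the median absolute difference of the 39 was 0.39. The second was in TMA16, where the fully_unique junction chr4:163514158-163517433 (mean 0.11) and the partial_unique junction chr4:163515461-163517433 (mean -1.60) share an end and differed by 1.71 (adjusted p = 0.0179). The third was in C18orf21, where the partial_unique junction chr18:35972907-35974895 (mean -1.51) lay 1.75 below the fully_unique junction chr18:35972840-35974895 (mean 0.24; adjusted p = 0.0179). All 39 pairs had the same standard error of 0.49 in limma, so the call amounted to a cut on the difference. The adjusted p-values of pairs follow from that pooled variance and not from the spread of each pair. With the median of the guides none of the 39 pairs was called, with 6 at an unadjusted p under 0.05.

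Other splicing genes varied along the transcript. BUD31, a spliceosome component, was lower on both of its partial_unique junctions, with means of -1.37 at chr7:99410169-99411063 and -2.91 at chr7:99416260-99417428. Its 2 fully_unique junctions had a mean of 0.020. RBM39, a splicing factor, was lower on 3 of 7 partial_unique junctions, with the lowest at chr20:35707201-35709223 (-2.71 and -2.93 at Day 21) and the highest at chr20:35716805-35721739 (0.35 and 0.26). In RBM39 a shared-end pair, the fully_unique chr20:35709256-35713018 and the partial_unique chr20:35709274-35713018, had means of 0.22 and -1.22, and the difference of 1.43 missed the threshold (adjusted p = 0.058).

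BRAF, the kinase whose activating mutation drives growth of A375 cells, was lower on all 9 of its partial_unique junctions. From one end of the gene to the other, in order of coordinate on chromosome 7, the Day 21 means were -4.07 (starting at 140734770), -1.17 (140749418), -4.84 (140778075), -1.73 (140783157), -1.33 (140787584), -1.31 (140794467), -3.70 (140800481), -1.94 (140808062) and -4.97 (140808995). Strongly and weakly lowered junctions were thus interspersed along the gene. The lowest, chr7:140808995-140834608, was at -0.90 and -2.46 at Day 7, -4.04 and -4.06 at Day 14, and -5.24 and -4.70 at Day 21. The next junction in the gene, chr7:140834872-140850110, is of the common category and was at 0.18 and -0.063, then -0.91 and -0.41, then -1.05 and -0.28. It was not called against Day 0 (mean -0.67; adjusted p = 0.184) and was 2.12 above the mean of the other BRAF junctions (adjusted p = 4.97e-05).

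Of the 69 guides on these 9 BRAF junctions, 45 were at -1 or lower in both replicates at Day 21 and 4 were above 0 in both. Within BRAF, 4 partial_unique junctions were below the rest of the gene and 3 above it in the within-gene test, even though all 9 were lower against Day 0. Guide 1 of the lowest junction went from an implied 117 to 1 and from 176 to 1, whereas guide 8 of that junction went from 176 to 101 and from 250 to 57. MAP2K1, which encodes the MEK1 kinase that BRAF phosphorylates, was looked up after its values were seen. It was lower on 4 of 5 tested junctions, with means from -2.02 to -0.99, and the remaining one was at -0.63.

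NUTF2, which carries the GTPase Ran into the nucleus, was lower on both of its junctions. At chr16:67868411-67868500 the values were -0.27 and -0.86 at Day 7, -3.03 and -2.73 at Day 14, and -3.68 and -3.60 at Day 21. At chr16:67868599-67870799 the Day 21 values were -3.47 and -3.78, and the 2 junctions differed by 0.017 (SE 0.36; adjusted p = 0.986). RCC1, the exchange factor of Ran, was not called on either of its 2 partial_unique junctions (-0.87 and 0.071).

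UBR4, a very large E3 ubiquitin ligase, had 22 tested partial_unique junctions with Day 21 means from -3.80 to -0.12, of which 13 were called lower and 21 were below 0 in both replicates. The lowest, chr1:19099677-19100375, was at -3.71 and -3.89. Of the 164 guides on these junctions 56 were at -1 or lower in both replicates. The 52 fully_unique junctions of UBR4 had a mean of -1.43, between the extremes of the partial_unique ones.

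WEE1, the kinase that restrains entry into mitosis, was low on 1 of its 5 tested junctions in particular. The one at chr11:9576293-9576486 was at -0.53 and -0.93 at Day 7, -2.54 and -2.46 at Day 14, and -4.20 and -2.82 at Day 21, and lay 3.04 below the others (adjusted p = 3.91e-07). The partial_unique junctions on either side of it had Day 21 means of -0.92, which was called lower against Day 0 (adjusted p = 0.0412), and -0.013. The fully_unique and the common junction of the gene were at -0.64 and -0.32.

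In genes with long runs of partial_unique junctions, the low values often sat in a few of them. There were 22 genes with 8 or more tested junctions, 270 junctions in all, and 67 of those were called lower. The share was 21.2% over all 619 partial_unique junctions and 25.3% over all junctions tested. Of the 67, UBR4 held 13, BRAF 9, CABIN1 8 and EIF2B5 6. In 16 of the genes some but not all junctions were called, in 5 (BRF1, C15orf41, GLE1, REV3L and UBA3) none and in BRAF all. The range within a gene ran from 0.74 to 3.93 with a median of 2.19. MARS, the cytosolic methionyl-tRNA synthetase, had the widest range: of 11 partial_unique junctions, chr12:57504299-57511697 was at -3.36 and -3.37 at Day 21, and the other 10 had means from -0.78 to 0.56 and were not called. At Day 7 that junction was already at -1.32 and -1.86, and at Day 14 at -2.37 and -3.20. Its 5 guides ran from -5.64 to -1.33.

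CUL2, a scaffold of cullin-RING ubiquitin ligases, had 16 partial_unique junctions and no other category. The junction at chr10:35025198-35028809, with 4 guides, was at -3.26 and -3.14 at Day 21, and that at chr10:35063062-35071198 at -1.47 and -2.28. The other 14 had means from -0.72 to 0.29, and none of them was called. At Day 7 the lowest CUL2 junction was at only -0.16 and -0.68, so most of its drop was measured later. NAA15, the ribosome-anchoring subunit of the NatA N-terminal acetyltransferase, showed both directions within the gene. Of its 13 junctions 4 were lower against Day 0, the lowest at chr4:139334258-139336847 (-2.85 and -3.06). The junction next to it, chr4:139336952-139340911, was at 1.27 and 0.48 (mean 0.88; adjusted p = 0.0541). In the within-gene test 3 NAA15 junctions were below the rest and 4 above. Of its 92 guides, 19 were at -1 or lower in both replicates and 28 were above 0 in both.

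Several more genes with many junctions were picked out after their values were seen. EIF2B5, the catalytic subunit of the eIF2B exchange factor, was lower on 6 of 11 partial_unique junctions, with means from -3.09 at chr3:184144224-184144596 to -0.31. Its fully_unique junction was at -2.57 and its common junction at 0.042. CABIN1 was lower on 8 of 24 partial_unique junctions, with means from -2.16 to 0.54. EIF3I, a subunit of the initiation factor eIF3, was lower on the 3 junctions of lower coordinate (means -1.98, -2.12 and -1.84) and not on the other 2 (-0.19 and 0.072). XRN1, the cytoplasmic exonuclease that degrades decapped mRNA, was lower on 3 of 4 partial_unique junctions, down to -3.17. MDM2, the ubiquitin ligase that targets p53, was lower on 4 of 6, down to -3.04.

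The within-gene test set each junction against the mean of its gene's other junctions in the same library. It covered 603 partial_unique junctions of 139 genes. At Day 7, 13 were below their gene (background 2.86% of 6110 tested) and 5 above (background 1.6%). At Day 14 there were 34 (background 6.96%) and 14 (background 4.17%), and at Day 21 there were 60 (9.95%; background 11.8%) and 38 (6.30%; background 9.57%). The member shares at Day 21 were below those of the table. The 98 junctions fell in 46 genes, 23 of which had junctions in both directions. A low junction lowers the mean that its neighbours are set against, so the directions within a gene are not independent. Of the 60 below their gene, 59 were also called lower against Day 0. Of the 38 above, 34 were uncalled against Day 0, 3 were called lower, all in BRAF, and 1 was called higher, in EMC1. A junction above its gene was therefore mostly one near 0 in a gene with low neighbours, as in RPLP0, RACK1 and RSL24D1. With guide medians 31 junctions were called, 25 below and 6 above.

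The other 2 of the 5 highest within-gene differences showed that pattern as well. In SLC25A3, the mitochondrial phosphate carrier, chr12:98601281-98601367 was at 0.14 and 0.76 at Day 21, while the junctions at chr12:98598035-98598521 and chr12:98600127-98601170 had means of -2.10 and -1.28. The first lay 2.14 above the others (adjusted p = 3.45e-05). In DCAF13, which acts in ribosomal RNA processing, 1 junction had a mean of 0.58 and another of -2.50, and the first lay 1.71 above its gene (adjusted p = 0.000614). With guide medians that DCAF13 difference was 1.39 (adjusted p = 0.0651). Over the 107 genes with at least 2 tested partial_unique junctions, 59 had none called lower against Day 0, 44 had some and 4 had all.

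The functional groups held further contrasts of this kind. GINS1, a subunit of the replicative helicase complex, was at -2.77 and -1.69 at chr20:25417202-25418104 and at -0.37 and 0.92 at chr20:25425327-25441701. PSMD8, a proteasome regulatory subunit, had a low junction at chr19:38380999-38382116 (-1.84 and -1.49) and a second lower one at chr19:38374961-38376159 (mean -1.28), with 2 near 0 between them (-0.028 and -0.075). CCT5, a chaperonin subunit, was at -1.68 and -2.18 at chr5:10256153-10258110 and at 0.58 and 0.79 at chr5:10262618-10263133. The low CCT5 mean rested on few of its guides: 3 of 8 were at -1 or lower in both replicates, the lowest went from an implied 117 to 1 and from 105 to 1, and the highest from 78 to 129 and from 59 to 311. With the median of the 8 guides it was at -0.091 (adjusted p = 0.942). RARS2, the mitochondrial arginyl-tRNA synthetase, was lower on 1 of 11 partial_unique junctions (-1.80 and -0.62), a call lost after centring on all guides (adjusted p = 0.0653). Some lowest junctions of the groups were not called against Day 0 with each day fitted alone. These were in the RNA polymerase subunit POLR2H (-0.84), the spindle checkpoint protein BUB3 (-0.62) and the TRAPP subunit TRAPPC4 (-0.64). The general transcription factor TAF8 (-0.46) and DDX55 (-0.72) were the others. In the within-gene test POLR2H was called, at -1.18 relative to its gene (limma adjusted p = 0.0168). Against Day 0 it passed under other settings, among them guide medians (adjusted p = 0.0472) and robust moderation (adjusted p = 0.0493). The highest junctions of the groups were not called against Day 0 either with each day fitted alone. Among them were those of the centromere protein CENPN (0.69), the mitochondrial ribosomal protein MRPL34 (0.66), the signal recognition particle subunit SRP54 (0.34) and TAF13 (0.12). Those of CENPN, MRPL34 and CCT5 passed as higher under other settings, centring on all guides among them.

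Guides of a lowered junction differed widely among themselves. The median SD between the guides of a junction was 1.75 for the 131 lower junctions and 0.847 for the uncalled ones. In 16 of the 131 every guide was below 0 in both replicates, and in 57 at least 50% of the guides were at -1 or lower in both. In 15 of the 131, 1 guide or none met that mark. WEE1 gives an example: its guide 1 was at -7.17 and -5.16, and guide 6 of the same junction at -1.58 and -0.17. Pearson's r between the replicates over partial_unique junctions was 0.771 at Day 21 and over single guides 0.470, against 0.807 and 0.540 over all junctions and all guides. These are descriptions across features that share libraries.

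The 4 junctions called higher were 3 of UBA3 and 1 of EMC1. UBA3 is the catalytic subunit of the enzyme that activates NEDD8, the modifier that switches on cullin ligases. Its 12 tested partial_unique junctions had Day 21 means from -0.20 to 1.35, and 5 were above 0 in both replicates and 1 below. The junction at chr3:69063503-69064067, with 4 guides, was at -0.089 and 0.59 at Day 7, 0.29 and 1.58 at Day 14, and 0.66 and 2.05 at Day 21. That at chr3:69056693-69056778 was at -0.12 and -0.057, then 0.51 and 1.1, then 0.84 and 1.65. The third, chr3:69056815-69057255, had a mean of 0.93 (adjusted p = 0.0378). Over the 76 UBA3 guides, 35 were above 0 in both replicates at Day 21 and 12 below. In the junction at 69056693, guide 1 rose from an implied 61 to 396 and from 66 to 818, and guide 6 went from 132 to 89 and from 135 to 96. EMC1, a subunit of the endoplasmic reticulum membrane protein complex, was at 0.42 and 1.52 at chr1:19243707-19243949, with none of the other tested junctions of the gene called. The highest UBA3 junction and the EMC1 junction missed the threshold with guide medians (adjusted p = 0.0597 and 0.0593).

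Properties of the guides and junctions that were not used to choose them gave similar called shares in most of their classes. By guide number within the junction, the share of guides called lower at Day 21 ran from 7.71% for guide 7 to 9.85% for guide 5. By position in the RefSeq gene, junctions in the first, middle and last part of equal length were called lower in 21.7%, 22.97% and 19.8% of cases, and over 604 junctions the correlation of mean and position was 0.0047. By distance between the splice sites, in 4 classes of equal size from short to long, the shares were 21.3%, 24.7%, 21.9% and 16.8%. Gene means over partial_unique junctions were weakly correlated with the GeCKO score over 155 genes (Pearson's r = 0.291, Spearman's rho = 0.262), a description across genes that share these libraries.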

How the data were processed

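The screen was read out by sequencing guide cassettes amplified from genomic DNA of A375 cells, with reads trimmed by cutadapt 3.5 and aligned by Bowtie 1.1.2 as the tools and the build hg38 are named in the submitters' processing notes. The authors deposited a single table of log2 fold changes, per the file headers 1 value per guide, day and replicate, and Day 0 entered as the reference. How reads were counted, scaled and filtered, and whether a pseudocount was added, is not given in the sources used here. The deposited table also held a GeCKO gene score, whose making was likewise not stated. PCR used no molecular identifiers that the labels name, so reads are not independent molecules.

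Values were used as deposited. limma 3.58.1 in R 4.3.3 tested the mean of the 2 replicates against 0 at each day alone, two-sided, with Benjamini-Hochberg adjustment over the whole table and a threshold of 0.05. Junctions needed at least 3 guides. Within-gene and shared-splice-site differences were taken inside each library before the same test. In a gene with 2 tested junctions both give the same within-gene test with opposite sign, and 7 of the 98 within-gene calls at Day 21 came from such genes. The fits were also run on simulated data with planted changes. These data were drawn from the variance limma had fitted, so the run cannot check that variance. With 2 replicates an exact sign-flip test cannot go below p = 0.5, so no such test is given.

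The members, the gene lists and the rules were chosen with earlier results of these data known. Junctions were named by rule: the 12 lowest called lower and 3 highest called higher, the 10 lowest and 5 highest within-gene differences with 1 junction a gene, the called shared-site pairs, and the lowest and highest junction of each list with at least 3 junctions. Others are said to have been picked later. Gene symbols were matched to RefSeq, 153 directly and 3 as synonyms (C15orf41 as CDIN1, HARS as HARS1, KARS as KARS1). Guide sequences were not used here. Alternatives changed the centring, the moderation, the guide summary, the minimum of guides, the comparator and the design.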

Additional observations from a re-analysis of the deposited data

Results flagged for a closer look

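Of the named junctions, 3 had both Day 7 values on one side of 0 and both Day 21 values on the other. The difference between the days was not tested, and both days share the Day 0 library of their replicate.

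The UBA3 junction at chr3:69056693-69056778 went from a mean of -0.087 at Day 7 (-0.12 and -0.057) to 1.25 at Day 21 (0.84 and 1.65; limma adjusted p = 0.00265). The BUB3 junction starting at 123160565 went from 0.031 (0.060 and 0.0025) to -0.62 (-0.44 and -0.81), and its Day 21 value was not called (adjusted p = 0.225). The RACK1 junction at chr5:181237719-181238098 went from 0.088 (0.13 and 0.050) to -0.19 (-0.077 and -0.30; adjusted p = 0.82), also not called. With each day fitted alone, the UBA3 junction is the only one of these called against Day 0 at either day. With the replicate block the BUB3 junction was called lower at Day 21 as well (adjusted p = 0.0183).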

How the results depend on the processing

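None of the 27 called named junction means and 15 called named within-gene differences changed sign under an alternative run for it. Several alternatives could not have changed a sign. The replicate block and robust moderation leave the estimate itself as it is. The 12 lowest junctions were named only if below 0 in both replicates, so leaving out 1 replicate cannot change theirs. Centred on all guides, 3 of the 49 named junction means changed sign, all uncalled (in PSMD8, RACK1 and RSL24D1). Leaving out 1 replicate leaves 1 value a day and no test: the class median against non-targeting guides then lay between -0.11 and 0.026 at Day 7, between -0.20 and -0.16 at Day 14 and between -0.234 and -0.228 at Day 21. The share at -1 or lower lay between 3.60% and 9.75%, 22.0% and 23.2%, and 28.7% and 30.8% on those days, and 6 of the 49 named junction means, all uncalled, changed sign without 1 or the other replicate (in DDX55, GINS1, PSMD8, RCC1, RSL24D1 and TAF13). As a mean over guides the class difference was -0.36 at Day 14 and -0.46 at Day 21, and against control genes -0.15 at Day 14. Centred on all guides, the share was 17.5% at Day 14 and 23.7% at Day 21, and 11 junctions were called at Day 7.

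With the guide median in place of the mean, junction calls were 9 at Day 7 and 58 at Day 14, within-gene calls 11 at Day 7 and 31 at Day 21, and pair calls 0 (6 at an unadjusted p under 0.05). With common junctions as the only comparator, within-gene calls were 9, 18 and 38 of 296, and with at least 5 guides 29 at Day 7. At Day 7, a spread shared by all days left 0 guide, 0 junction and 0 within-gene calls in limma (86, 25 and 22 at an unadjusted p under 0.05), against 5 pair calls at Day 21, and robust moderation left 0 junctions (53 unadjusted).

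The replicate numbers are shared by all days, and each fold change already subtracts its own replicate's Day 0. Deviations of the replicates correlated between days (0.408 to 0.659 over guides, 0.416 to 0.667 over junctions), but 2 pairs do not settle a pairing. With the replicate block, guide calls were 4, 423 and 993 at Days 7, 14 and 21, junction calls 17, 174 and 259 (229 lower and 30 higher at Day 21), within-gene calls 9, 150 and 229, and pair calls 12. All 135 junctions called at Day 21 were among the 259. The block also called 10 named junctions that were uncalled against Day 0 with each day alone (adjusted p from 0.00387 to 0.0396). They were POLR2H, TAF8, TRAPPC4, BUB3 and DDX55 as lower, and CENPN, MRPL34, CCT5, DCAF13 and MARS as higher. Depth limits how far a guide can be seen to drop, and guides at an implied number of 1 may be at that limit.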
